A study of Mus musculus with 2 samples.

Results

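The BCL2 family was read in neutrophils sorted from mouse bone marrow, for 10 genes chosen by name: the survival genes Mcl1, Bcl2 and Bcl2l1, the pore-forming genes Bax and Bak1, and the BH3-only genes Bid, Bcl2l11, Bad, Bmf and Bbc3. A probe set was taken when the platform annotation assigned it to exactly 1 of these symbols and to no other gene. This gave 31 of 45101 probe sets and 9 of 18194 genes. Bax is not analysed here. The rule itself uses names and no measured value. The cells came from C57BL/6 mice, an inbred strain, with no treatment and no second group, and the labels do not state the age, sex or number of the animals. Live cells with a high Gr-1 stain and no CD48 were collected by flow cytometry in 2 independent experiments. A DNA dye that enters dead cells was used to leave those cells out, so the values describe cells with an intact membrane. RNA of each experiment was hybridised to 1 array, called replicate 1 and replicate 2.

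Proteins of the BCL2 family decide whether the outer mitochondrial membrane is opened, the step that commits most cells to apoptosis. Survival members such as MCL1, BCL2 and BCL-XL hold the pore-formers BAX and BAK in check, and the BH3-only proteins, which are switched on by stress, loss of growth factor or death receptors, bind the survival members or activate the pore-formers directly. Neutrophils are short-lived cells, and MCL1, a protein that is itself rapidly degraded, is known as a survival factor on which they depend.

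Neutrophil marker genes were above background on both arrays in 11 of 11 measured cases, among them S100a8, Ltf and Camp, and 9 of the 11 were higher on replicate 2. Markers of B cells were above background on both arrays in 1 of 7 measured genes, of T cells in 1 of 6, of erythroid cells in 3 of 6, of monocytes in 5 of 8, of stem and progenitor cells in 1 of 5 and of eosinophils and basophils in 1 of 6. Over all genes 40.4% were above background, and of these 43.7% were lower and 3.43% over 2-fold higher on replicate 2. The 2 arrays differed in cell division genes, of which 8 of 11 measured were above background and all 8 were over 2-fold higher on replicate 2, with a summed signal over the 11 of 1466 on replicate 1 and 11157 on replicate 2. Of the mature neutrophil genes 8 of 9 measured were above background, 7 of them lower and 1 (Mmp9, at 0.19) higher on replicate 2. Their median log2 difference was -1.19, and the summed signal over the 9 was 80591 and 53683. Cxcr2, Csf3r and Mmp9 are in this list and also among the neutrophil markers above, so these lists overlap. Of the 5 monocyte genes above background 4 were lower and Ccr2 was higher (0.49), and the summed signal over the 8, of 8316 and 3914, was mostly that of Csf1r, at 5020 and 1928. None of these markers was listed at 0. Background on an array was the 95th percentile of 87 probe sets for smell, pheromone and taste receptors, which gave a signal of 108 for replicate 1 and of 131 for replicate 2. A gene counted as above background if any probe set of that gene exceeded this value on each array.

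Of the 9 measured genes, 7 were above background, against 40.4% of all genes. These shares are not like for like, since 1 probe set suffices for a gene to count. The 9 genes had 31 probe sets, where all 18194 genes had 34958. Of the 31 probe sets, 16 were above background on both arrays, 2 on replicate 1 alone and 13 on neither. Of the 16, 6 were those of Mcl1, and the share over all probe sets of single genes was 35.5%. The 7 genes were Mcl1, Bcl2l1, Bak1, Bid, Bcl2l11, Bad and Bbc3. Bcl2 was below background throughout, and Bmf exceeded it on replicate 1 alone. Different probe sets bind with different strength, so levels are compared between the arrays and with background, never from gene to gene. On bulk RNA, fewer cells with a transcript and less of it per cell cannot be told apart.

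The regulatory sequence upstream of 2 genes is shown because they stand on opposite sides of the family and of the background line: Bcl2, the founding survival gene, with no probe set above background, and Bcl2l11, which encodes the BH3-only protein BIM, with 3. Each run is the 250 bases before the RefSeq transcript start in GRCm38.p6, 5′ to 3′ on the strand of the gene, at chr1:106714291-106714540 (minus strand) for Bcl2 and at chr2:128125788-128126037 (plus strand) for the more upstream of the Bcl2l11 starts in the table. Capitals mark matches of the motifs searched.
Bcl2: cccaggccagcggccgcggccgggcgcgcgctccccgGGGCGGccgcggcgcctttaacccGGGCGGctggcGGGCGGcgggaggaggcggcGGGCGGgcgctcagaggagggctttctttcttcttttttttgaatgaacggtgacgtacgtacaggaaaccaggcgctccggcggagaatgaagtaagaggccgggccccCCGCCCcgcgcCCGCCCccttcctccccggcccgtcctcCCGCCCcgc
Bcl2l11: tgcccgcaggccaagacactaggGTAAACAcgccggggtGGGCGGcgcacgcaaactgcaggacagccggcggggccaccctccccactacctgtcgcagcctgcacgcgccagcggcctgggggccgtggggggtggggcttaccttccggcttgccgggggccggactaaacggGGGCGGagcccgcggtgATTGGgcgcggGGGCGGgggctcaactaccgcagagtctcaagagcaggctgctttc

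Both windows are rich in G and C, at 74.8% for Bcl2 and 72.0% for Bcl2l11, where the median of 32536 such windows was 52.4%. The windows of the whole family ran from 47.6% (Bcl2l1) to 81.6% (Bbc3). The motifs, searched on both strands, were the TATA box (TATAAA), the CCAAT box (CCAAT), the GC box (GGGCGG), the cyclic AMP response element (TGACGTCA), a forkhead core (GTAAACA) and the E-box (CACGTG). The Bcl2 window held 7 GC boxes and no other motif of the set. The Bcl2l11 window held 3 GC boxes, 1 CCAAT box on the opposite strand and 1 forkhead core whose first base lies 227 bases before the start. The window of the other Bcl2l11 start held no forkhead core, and a window of Bbc3 did hold one. Over all windows 33.0% held a GC box, 33.8% a CCAAT box, 3.17% the forkhead core, 12.3% a TATA box, 6.04% an E-box and 1.56% the cyclic AMP element. No marked matches overlapped. These are matches of letters, and binding was not measured.

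**Figure D1:**
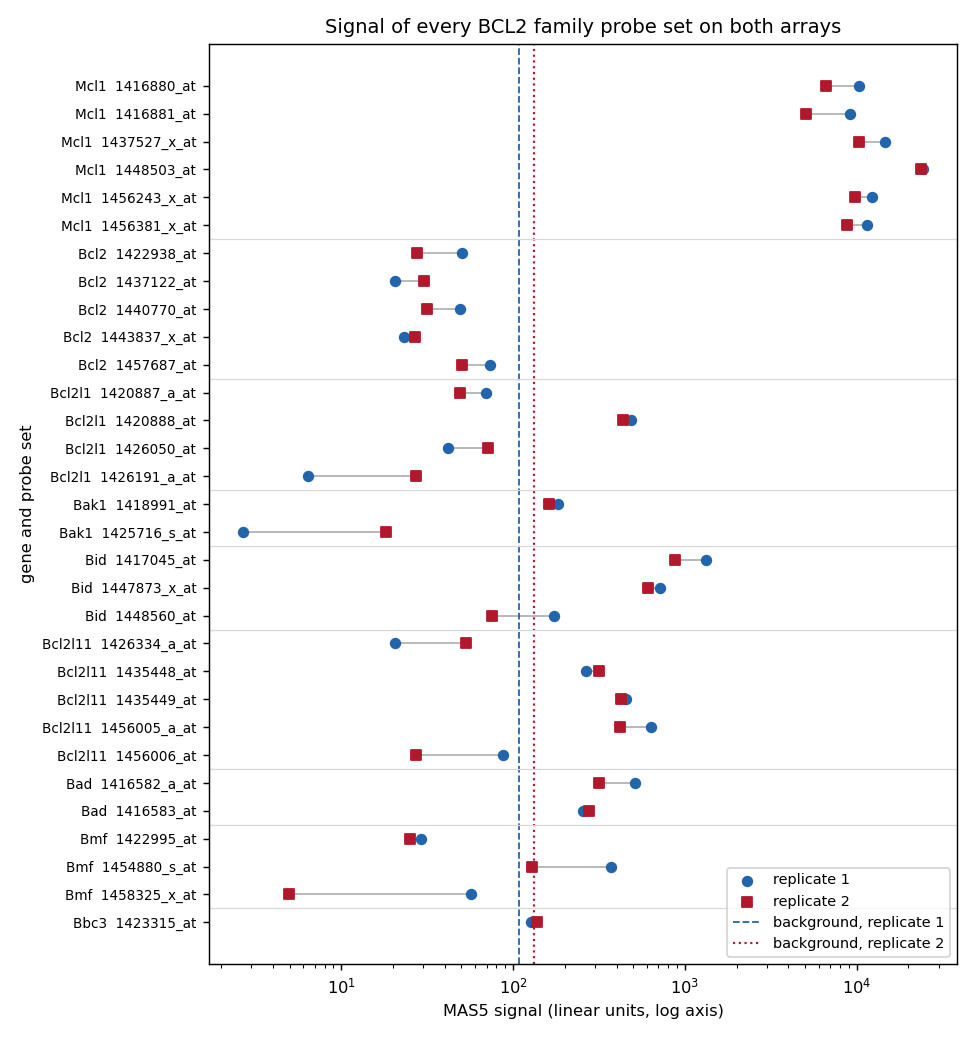
MAS5 signal (linear units on a log axis) of each of the 31 probe sets, with replicate 1 as circles, replicate 2 as squares and the background of each array as a vertical line. The 6 Mcl1 probe sets lie far to the right of both lines, the 5 of Bcl2 lie to the left of both, and 1 Bmf probe set is above its line on replicate 1 and just under it on replicate 2.

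Among the survival genes, Mcl1 was detected by every probe set. Its brightest, 1448503_at, had signals of 24436 on replicate 1 and 23532 on replicate 2, which differed by 1.04-fold. The other 5 ranged from 9155 to 14626 on replicate 1 and from 5054 to 10251 on replicate 2. All 6 were lower on replicate 2, by log2 differences from -0.05 to -0.86, so the arrays nearly coincided on 1 probe set and stood 1.81-fold apart on another, 1416881_at. Of the 6, 3 have names ending in _x_at, which marks probes that can bind other transcripts. The dimmest Mcl1 value on either array was still 38.5 times the background of that array.

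Bcl2 lay on the other side of the background line. Its 5 probe sets had signals from 20.4 to 73.4 on replicate 1 and from 27.0 to 50.3 on replicate 2, at most 0.68 times the background. Between the arrays 3 were lower and 2 higher on replicate 2, and values below background have no order. Transcripts of Bcl2 were not detectable above background on these arrays, which does not show that they were absent.

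Bcl2l1, which encodes BCL-XL, was above background on 1 of 4 probe sets. That probe set, 1420888_at, had signals of 483 and 437 on replicates 1 and 2, a log2 level of 8.84 ± 0.10 (SD, n = 2). The other 3 had at most 69.7 on replicate 1 and 71.5 on replicate 2. The gene call rests on 1 probe set, and the part of the transcript that each probe set reads was not analysed here.

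Bak1, the measured pore-former, was near background. Its probe set 1418991_at had signals of 182 and 162, which were 1.69 and 1.23 times the background of replicates 1 and 2. Its other probe set, 1425716_s_at, had 2.68 and 18.2 and was far below background on both arrays.

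Bid encodes the BH3-only protein that caspase-8 cuts to link death receptors to mitochondria. Its probe set 1417045_at had signals of 1324 and 874, a log2 level of 10.07 ± 0.42 (SD, n = 2). A second, 1447873_x_at, had 713 and 608. The third, 1448560_at, had 174 on replicate 1 and 75.7, below background, on replicate 2. All 3 probe sets of Bid were lower on replicate 2, and the third was at least 1.32-fold lower when replicate 2 is set to its background value.

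Bcl2l11 (BIM), an activator of apoptosis after loss of growth factors, was above background on 3 of 5 probe sets, which did not move together. Probe set 1456005_a_at had signals of 636 and 417, a log2 difference of -0.61. Probe set 1435449_at had 455 and 425, a difference of -0.10, and 1435448_at had 266 and 318, a difference of 0.26. The remaining 2 were below background on both arrays, at 20.5 and 87.5 on replicate 1 and 53.5 and 27.3 on replicate 2. No single direction between the arrays therefore describes this gene.

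Bad, whose product is held inactive by phosphorylation when growth factors are present, was above background on both of its probe sets. Probe set 1416582_a_at had signals of 511 and 316, a log2 difference of -0.69, and 1416583_at had 256 and 276, a difference of 0.11. The first was lower and the second slightly higher on replicate 2.

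Bmf encodes a BH3-only protein tied to the cytoskeleton and had the widest gap between the arrays of the 9 genes when each is read on its brightest probe set. Its probe set 1454880_s_at had a signal of 372 on replicate 1, which was 3.45 times background, and of 129 on replicate 2, just under it. Replicate 2 was thus at least 2.83-fold lower when set to its background value. The other 2 Bmf probe sets were below background on both arrays, at 29.2 and 56.6 on replicate 1 and 25.3 and 4.96 on replicate 2. The difference rests on 1 probe set whose name ends in _s_at, and with 1 array per experiment it has no replicate check.

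Bbc3, which encodes PUMA, a BH3-only protein induced by p53, had 1 probe set with signals of 127 and 138. These were 1.18 and 1.05 times the background of replicates 1 and 2, and so close to it. Its log2 difference was 0.12, which lay 0.04 above the median of all genes above background, and with quantile normalization it lay at -0.04 from that median.

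Between the arrays, none of the 7 chosen genes above background on both differed over 2-fold. Bmf, at least 2.83-fold lower on replicate 2, is not among the 7, since it was above background on replicate 1 alone. Genes above background on 1 array alone are likewise left out of the shares over all genes. Over all 7354 genes above background, 1.97% were over 2-fold lower and 3.43% over 2-fold higher on replicate 2. Of the 7 family genes, 6 were lower on replicate 2 on their brightest probe set and Bbc3 was higher, where 43.7% of all genes were lower. The 6 became 5 of 7 without probe sets ending in _x_at, _s_at or _a_at. They became 7 of 7 with median scaling, where Bbc3 had -0.01, and with scaling to the hybridisation controls. With the 99th percentile as background, 5 of 5 were lower. Directions are relative to the deposited scaling, since scaling to the hybridisation controls moved the median of all genes above background from 0.07 to -0.63. The family median was -0.17, and the SD of the difference over all genes above background was 0.50. This median became -0.60 with the 99th percentile as background and -0.54 with no background filter. It was -0.30 with median scaling or quantile normalization and -0.10 without the _x_at, _s_at and _a_at probe sets. Median scaling shifts all genes alike, here to a median of -0.06, so the family stayed -0.24 from it, as with the deposited scaling. With quantile normalization the family lay -0.35 from the median of all genes. The value with no filter was that of Bcl2, which was below background on both arrays. By probe set, 13 of 16 above background were lower on replicate 2, against 46.0% of all such probe sets, with a median of -0.29 against 0.04. The 6 Mcl1 probe sets read 1 gene and are not separate observations. Of 4 family genes with several probe sets above background, 2 (Mcl1 and Bid) had them all on the same side of 0, against 59.8% of 3000 such genes.

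**Figure D2:**
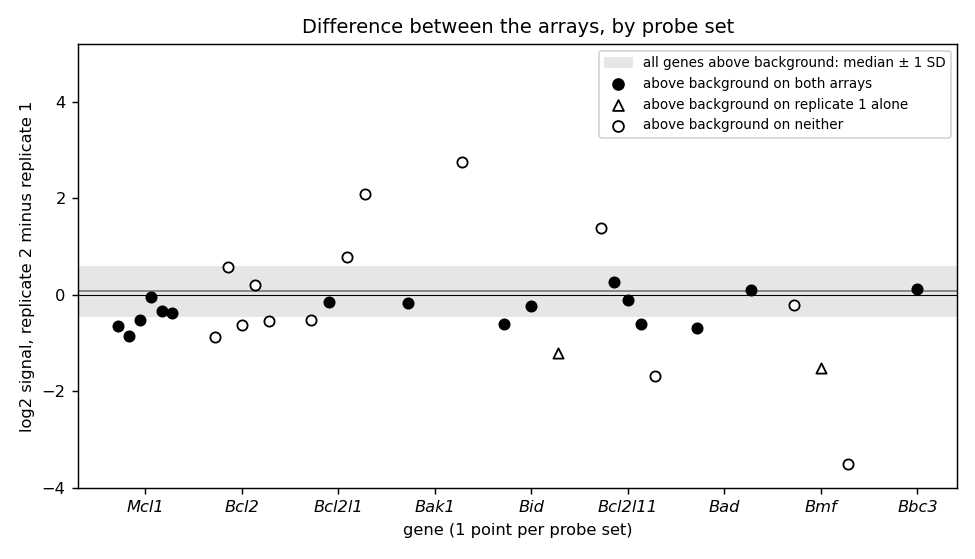
Log2 signal of replicate 2 minus replicate 1 for each probe set, by gene, where filled circles are above background on both arrays, triangles on replicate 1 alone and open circles on neither. The grey band is the median of all genes above background (0.07) plus and minus 1 SD (0.50), and the filled points run from -0.86 (Mcl1) to 0.26 (Bcl2l11), with the points of Bcl2l11 and Bad on both sides of 0 under the deposited scaling.

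By role, the survival genes Mcl1 and Bcl2l1 had differences of -0.05 and -0.14 on their brightest probe sets, and Bak1 had -0.17. The BH3-only genes Bid, Bcl2l11 and Bad had -0.60, -0.61 and -0.69, while Bbc3 had 0.12. This order depends on the probe set read. With the mean over the probe sets above background, Mcl1 had -0.47, Bid -0.41, Bad -0.29 and Bcl2l11 -0.15. A gap between survival and BH3-only genes is therefore not shown. The cell division genes, and most mature neutrophil and monocyte genes, also differed between the arrays, with the values given above, and their part in the family differences was not tested.

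**Figure D3:**
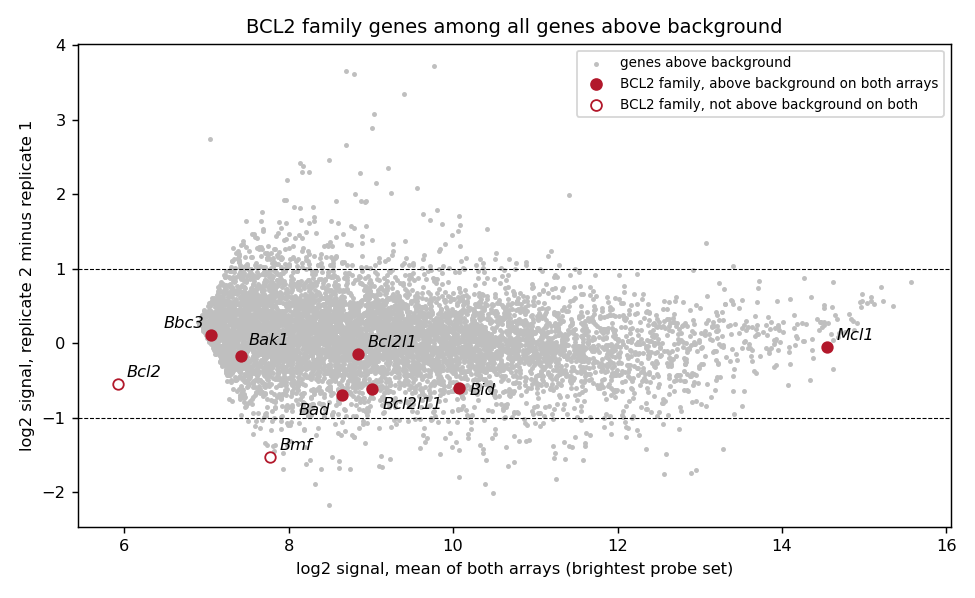
Each of the 7354 genes above background as a grey point, with the mean log2 signal of both arrays on the horizontal axis and replicate 2 minus replicate 1 on the vertical axis, and dashed lines at a 2-fold difference. The 7 family genes above background (filled) lie inside the lines, Mcl1 at a level of 14.55, while the open points of Bmf and Bcl2 are drawn at measured signals that include values below background, so that for Bmf only the bound of at least 2.83-fold holds.

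Other genes of the family were above background in 4 of 11 measured cases, near the 40.4% of all genes. Of the multidomain genes, Bcl2l2, which encodes the survival protein BCL-w, had signals of 127 and 217 on the brightest of its 4 probe sets, and the other 3 were below background. Bcl2l13, a mitochondrial family member, had 196 and 288. Bcl2l10, Bcl2l12, Bcl2l14 and Bcl2l15 were below background on both arrays, and Bok, a pore-former, exceeded it on replicate 2 alone at 147. The genes Bcl2a1a, Bcl2a1b, Bcl2a1c and Bcl2a1d, named for the survival protein A1, and Bnip3l have no probe set of their own in the annotation and enter no count.

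Of the other BH3-only genes, Pmaip1, which encodes NOXA, a partner of MCL1, had signals of 646 and 614 that nearly coincided. Bnip3, a mitochondrial protein induced by low oxygen, had 1220 and 596, a 2.05-fold lower signal on replicate 2. Bik was below background on both arrays, and Hrk exceeded it on replicate 2 alone at 223.

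Of 16 measured genes that act on family members 14 were above background, against 40.4% of all genes. The number of probe sets per gene was not matched in this comparison, and Usp9x had 7 while Pim2 had 1. Of the 14, 10 were higher and 4 lower on replicate 2 (median log2 difference 0.11), where 43.7% of all genes were lower. Huwe1, a ubiquitin ligase that marks MCL1 for destruction, had signals of 245 and 346. Usp9x, a protease that removes ubiquitin from MCL1, had 345 and 391, and Fbxw7, part of another ligase for MCL1, had 574 and 431. Pim1, a kinase that phosphorylates BAD, was the regulator past 2-fold, with 3046 on replicate 1 and 1239 on replicate 2. Btrc and Pim2 were above background on replicate 1 alone, and Trp53 is not analysed here.

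Downstream of the mitochondrial pore, 6 of 6 measured genes were above background, against 40.4% of all genes, with a median difference of 0.11. The number of probe sets per gene was not matched here or for the death receptor genes. Cycs, which encodes the cytochrome c that the pore releases, had signals of 2464 and 4649. Apaf1, which binds it to build the apoptosome, had 1327 and 1525, and the caspase gene Casp9 had 278 and 281. On the death receptor side 5 of 6 measured genes were above background, against the same share, with a median of 0.20. The receptor gene Fas had 1036 and 708, its adaptor Fadd 144 and 268, and Casp8 541 and 623. None of the genes above background in these 2 lists differed over 2-fold between the arrays.

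**Figure D4:**
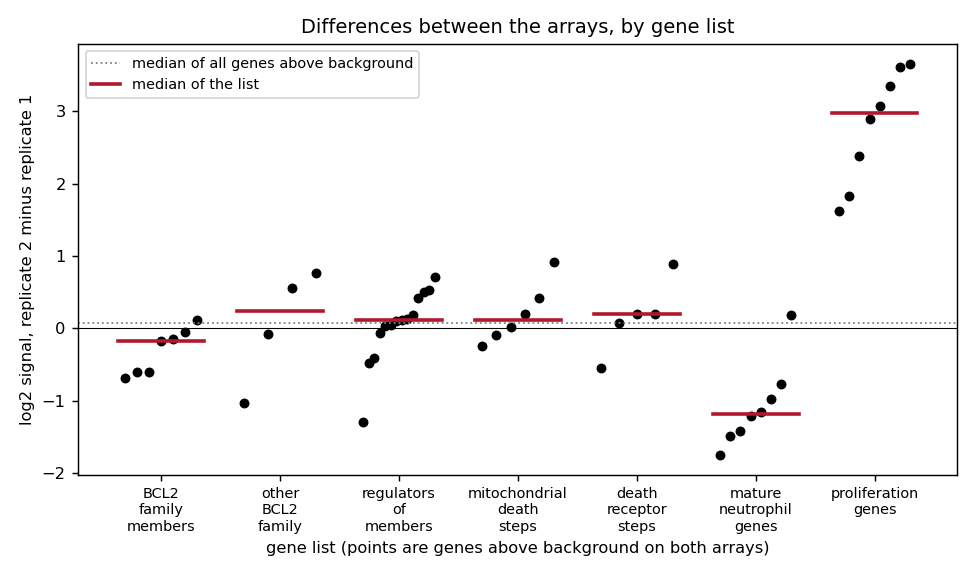
Log2 signal of replicate 2 minus replicate 1 for the genes above background of 7 lists, with a red bar at each median and a dotted line at the median of all genes above background (0.07). The family (-0.17), the regulators (0.11), the mitochondrial steps (0.11) and the death receptor steps (0.20) lie near 0, the mature neutrophil genes lie lower (-1.19) and the cell division genes higher (2.98).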

How the data were processed

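The deposited table gives 1 linear signal intensity per probe set and array, which the authors computed in MAS5, as the submitters' processing notes say. No source used here names its version or settings. MAS5 scales each array by 1 factor: after trimming 2% of the probe sets at each end, each array had a mean signal of 250.0. No detection calls were used. The labels' protocols give 200 ng of total RNA per labelling. Signals were floored at 1 and turned to log2. A gene was read on its probe set of highest mean log2 signal, and differences are replicate 2 minus replicate 1. With 1 group of 2 arrays there is no test and no p-value, and the number of arrays limits precision. Where a probe set passed background on 1 array alone, the other was set to its background for a bound. Named genes were the 10 members with every probe set, in the other lists of the pathway the first 3 above background and those past 2-fold, and others where a count of 5 or fewer called for it. No genes of like pattern were sought, since 2 arrays give 1 difference per gene. Members and lists were chosen with earlier results of these data known. Protein sequences were not used here. Upstream sequences and gene identifiers are from RefSeq (GRCm38.p6), where all 9 measured members matched. Scripts used Python 3.11.15, numpy 2.4.6 and pandas 2.3.3, and were tested on simulated data.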

Additional observations from a re-analysis of the deposited data

Results flagged for a closer look

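Probe sets assigned to several genes were outside the family counts, and 4 of them that include a family gene had a signal above background on both arrays. Probe set 1419004_s_at, assigned jointly to Bcl2a1a, Bcl2a1b and Bcl2a1d, had signals of 182 on replicate 1 and 136 on replicate 2, while the other 2 probe sets shared by the A1 genes were below background. The 3 probe sets assigned jointly to Bnip3l and its pseudogene had 5761 and 5231 (1416922_a_at), 2529 and 2638 (1416923_a_at), and 1398 and 1684 (1448525_a_at). Which of the genes gave these signals cannot be told apart.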

How the results depend on the processing

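The count of 7 family genes above background became 8 with the 90th percentile as background (Bmf added) and 5 with the 99th (Bak1 and Bbc3 lost). It was 7 on replicate 2 taken alone, 8 on replicate 1 taken alone and 7 without probe sets ending in _x_at, _s_at or _a_at. The share of all genes above background moved too, to 45.4% with the 90th percentile and 32.7% with the 99th. That share was 44.2% on replicate 2 alone, 46.3% on replicate 1 alone and 36.5% without the probe sets just named. Bcl2 was below background in each of these settings. The family median of -0.17 ranged from -0.10 to -0.60 under the other settings, apart from scaling to the hybridisation controls, where it was -0.87 and the median of all genes was -0.63, so that the family lay -0.24 from that median, as with the deposited scaling. Without a background filter the family median was -0.54, the value of Bcl2, which was below background on both arrays. Without probe sets ending in _x_at, _s_at or _a_at, the differences of Bcl2l11 and Bad moved to -0.10 and 0.11, so that Bad changed its sign, and Bmf had no probe set above background on either array. No paired analysis was possible because there is 1 group. The closeness of Bbc3 and Bak1 to background limits what can be said of them.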
